A study of Mus musculus with 6 samples.

Results

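The family described here is 10 genes that encode the transforming growth factor beta (TGF-beta) ligands, their receptors and the proteins that keep the ligands latent in the matrix. They are the ligands Tgfb1, Tgfb2 and Tgfb3, the receptors Tgfbr1, Tgfbr2 and Tgfbr3, and the latent TGF-beta binding proteins Ltbp1, Ltbp2, Ltbp3 and Ltbp4. They were chosen by gene symbol, and 10 of 10 were found among the 54532 genes of the table and were among the 14406 that passed a filter on low counts. RNA was sequenced from hearts at day 14 after myocardial infarction (MI), in 3 libraries from wild-type C57BL/6 mice (WT) and 3 from C57BL/6 mice lacking ACKR4, an atypical chemokine receptor that scavenges CCL19, CCL21 and CCL25 (ACKR4_KO). All mice were 8 to 10 weeks old and all had an infarct, so no uninjured heart stands beside them. The knockout was not described as limited to a cell type, and the labels do not say which region of the heart was used or that each library is a separate animal. The p-values therefore measure the spread between these libraries, part of which may be technical.

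Each TGF-beta ligand is made as a precursor whose propeptide stays wrapped around the mature growth factor. LTBP1 and LTBP3 bind this propeptide and tether the latent complex to the matrix and its fibrillin microfibrils. LTBP4 does so weakly and for TGF-beta 1, and LTBP2 lies on the same microfibrils without binding latent TGF-beta. Free ligand is bound by TGFBR2, which phosphorylates TGFBR1, which in turn phosphorylates SMAD2 and SMAD3. TGFBR3 (betaglycan) is a co-receptor needed most for TGF-beta 2. In the infarcted heart the pathway is known for turning fibroblasts into the matrix-producing cells of the scar.

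The ligands differ in how the latent form is opened. The propeptides of TGF-beta 1 and TGF-beta 3 carry an arginine-glycine-aspartate motif that alpha-v integrins bind, and that of TGF-beta 2 does not. Its codons (CGN, AGA or AGG, then GGN, then GAC or GAT) were searched in frame in 1 coding transcript of each gene. They were found at 1 place in Tgfb1, from codon 244 in exon 5, at 1 place in Tgfb3, from codon 261 in exon 5, and at 0 places in the 1326 coding bases of Tgfb2. On GRCm38 they lie at chr7:25697142-25697150 on the plus strand for Tgfb1 and at chr12:86062165-86062173 on the minus strand for Tgfb3. The spliced coding sequence around them is shown 5′ to 3′, with the codons of the motif in capitals, because it sets apart the ligands compared here.
Tgfb1: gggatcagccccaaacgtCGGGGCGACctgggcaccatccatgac
Tgfb3: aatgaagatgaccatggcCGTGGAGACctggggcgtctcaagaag

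The libraries held 9422462 to 13910358 reads, of which mitochondrially encoded genes took 15.8% to 21.4%. Ackr4 had 165, 151 and 169 reads in WT and 4, 1 and 12 in ACKR4_KO. The biological coefficient of variation over all genes was 11.7% within WT and 26.7% within ACKR4_KO. The 9 cardiomyocyte markers summed to 34835 to 43494 CPM (CPM is a count scaled to the size of its library, here with TMM factors) in WT and 44855 to 62444 CPM in ACKR4_KO. Traces of other tissue differed between the groups. The 8 lung epithelial markers summed to 240, 39.3 and 117 CPM in WT and to 0.404 to 1.92 CPM in ACKR4_KO, where Sftpc, Sftpd, Scgb1a1 and Cldn18 had no read. The 7 fast skeletal muscle markers summed to 4.12, 92.5 and 116 CPM in WT and to 2.58 to 9.53 CPM in ACKR4_KO.

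No member of the family passed the test between ACKR4_KO and WT. The log2 fold change of ACKR4_KO over WT was below 0 for 10 of 10 members, beside 48.0% of all genes tested, and its median was -0.26, beside 0.01 over all genes. With the quasi-likelihood test of edgeR 0 of 10 members passed an adjusted p of 0.05, and 0 of 14406 genes (0%) did. Ackr4 itself, at a log2 fold change of -4.70, had an adjusted p of 0.099 by edgeR and did not pass. DESeq2 called 39 genes (0.271%) and limma-voom 0 (0%), with 0 members in either. At an unadjusted p under 0.05 there was 1 member, Tgfbr2, while 7.45% of all genes were under it in either direction and 3.64% with a lower level in ACKR4_KO. The libraries of the groups did not overlap for 1 member, again Tgfbr2, beside 14.2% of all genes in either direction and 7.63% with the knockout lower. Without ACKR4_KO replicate 2 the members below 0 numbered 8 and their median was -0.08, and without ACKR4_KO replicate 3 the median was -0.41.

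**Figure D1:**
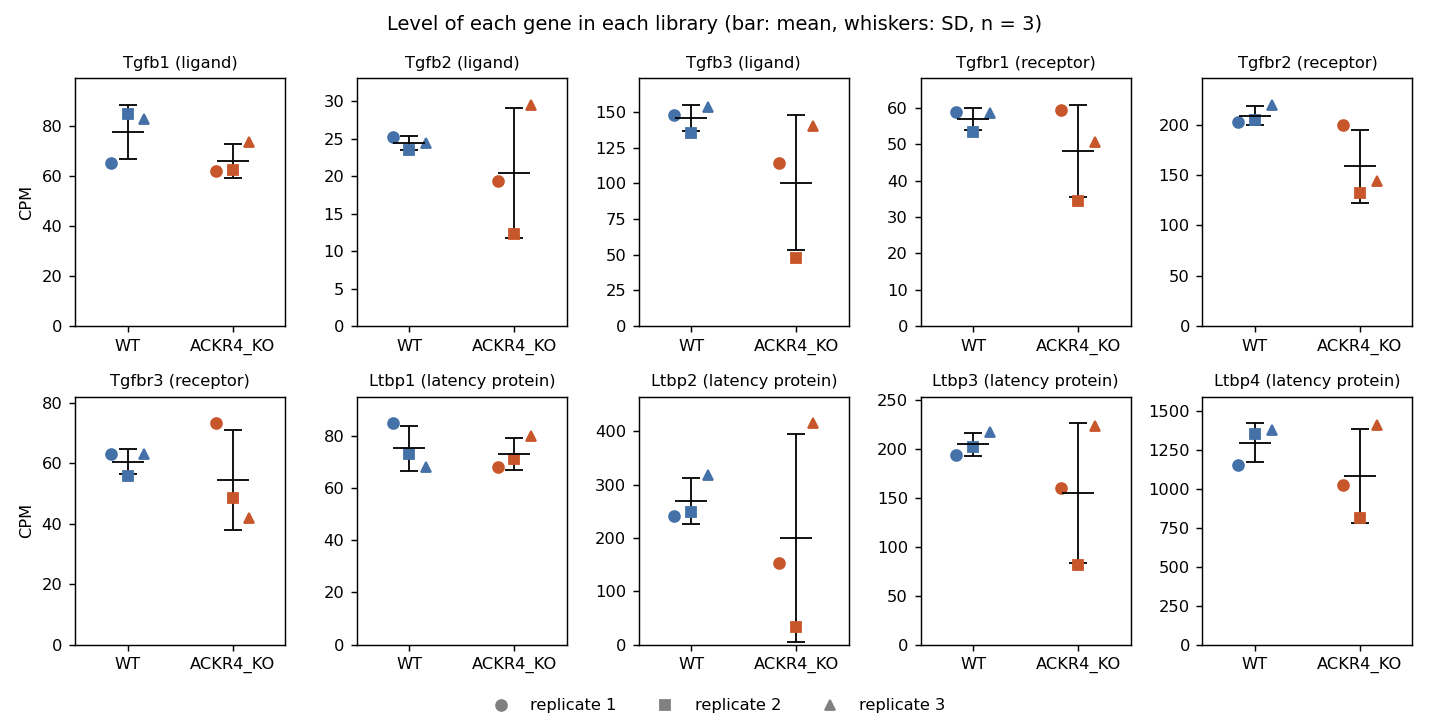
Level of each of the 10 genes in CPM (vertical axes, each from 0) in 3 WT libraries (blue) and 3 ACKR4_KO libraries (orange), with a symbol for each replicate number, a bar for the mean and whiskers for the SD. The ACKR4_KO libraries range from 32.6 to 415 CPM for Ltbp2, and for Tgfbr2 all of them lie below the WT libraries.

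The 3 knockout libraries differed in which members were low. ACKR4_KO replicate 1 was below every WT library for 7 members (30.1% of all genes) and above every WT library for 2, Tgfbr1 and Tgfbr3 (28.2%). ACKR4_KO replicate 2 was below for 9 members, all but Ltbp1 (36.0% of all genes), and above for 0 (35.4%). ACKR4_KO replicate 3 was below for 3 members, which were the 3 receptors (34.0% of all genes), and above for 4, which were Tgfb2, Ltbp2, Ltbp3 and Ltbp4 (34.2%). Both counts in replicate 3 were near the shares of all genes, and Ltbp1 was inside the WT range there. Replicate 1 went the other way for Tgfbr1 and Tgfbr3, above WT, and for Ltbp2, Ltbp3 and Ltbp4, below WT. ACKR4_KO replicate 2 was the lowest of the 6 libraries for 7 members, beside 25.6% of all genes. The SD of CPM was larger in ACKR4_KO for 8 members, all but Tgfb1 and Ltbp1, beside 74.1% of all genes.

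Of the ligands, Tgfb3 varied most between libraries. Tgfb3 (ENSMUSG00000021253, chr12:86056745-86079041, minus strand of GRCm38) was at 148, 135 and 154 CPM in WT replicates 1, 2 and 3 and at 114, 47.6 and 140 CPM in ACKR4_KO replicates 1, 2 and 3. Knockout replicate 3 was inside the WT range, replicate 1 below it, and replicate 2 was 3.06-fold below the WT mean, with an exact Poisson 95% interval of 43.4 to 52.2 CPM that covers counting error only. The means were 146 ± 9.26 and 100.6 ± 47.6 CPM (SD, n = 3 each). Its log2 fold change, -0.53 (standard error 0.35), had a 95% interval of -1.37 to 0.30 (adjusted p = 0.734 by edgeR). It was -0.20 without ACKR4_KO replicate 2 and -0.84 without replicate 3. Ttll5, on the opposite strand, overlaps 5149 bases of the Tgfb3 locus and had at most 300 reads in a library.

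Tgfb1 (ENSMUSG00000002603, chr7:25687002-25705077, plus strand), made by many cell types and stored in platelets, was at 65.1, 84.7 and 82.9 CPM in WT and at 61.8, 62.5 and 73.7 CPM in ACKR4_KO. Knockout replicates 1 and 2 lay below every WT library and replicate 3 inside the WT range. The means were 77.5 ± 10.8 and 66.0 ± 6.67 CPM, which gave -0.23 on the log2 scale (standard error 0.14) and an interval of -0.56 to 0.09 (adjusted p = 0.708 by edgeR). The platelet and megakaryocyte markers summed to 30.1 to 33.0 CPM in WT and to 34.3, 46.9 and 26.8 CPM in ACKR4_KO replicates 1, 2 and 3. In ACKR4_KO replicate 2, 5 of the 5 markers were above every WT library. Without Pf4 the list was at 5.97 to 7.94 CPM in WT and at 5.09, 16.6 and 5.41 CPM in ACKR4_KO. The part of platelets in the level of Tgfb1 was not tested.

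Tgfb2 (ENSMUSG00000039239, chr1:186622792-186705989, minus strand), the ligand without the integrin motif, was at 25.3, 23.5 and 24.4 CPM in WT and at 19.4, 12.3 and 29.5 CPM in ACKR4_KO. The WT libraries were close together, with a coefficient of variation of 3.75%, and the knockout libraries lay on both sides of them, with one of 42.4%. Its 120 reads in ACKR4_KO replicate 2 were the fewest of any member, which gives an exact Poisson 95% interval of 10.2 to 14.7 CPM. ACKR4_KO minus WT came to -0.26 on the log2 scale (standard error 0.27), with an interval of -0.88 to 0.37 (adjusted p = 0.827 by edgeR). It was 0.0032 without ACKR4_KO replicate 2 and -0.61 without replicate 3.

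Levels of different genes were compared per kilobase of annotated exon (RPKM). In WT Tgfb3 was the most abundant ligand at 43.1 ± 2.74 RPKM, followed by Tgfb1 at 15.4 ± 2.14 and Tgfb2 at 4.21 ± 0.158. The gap between Tgfb3 and Tgfb1 depends on the length used. The exons of Tgfb1, merged over its annotated transcripts, cover 5042 bases, and its longest coding transcript has 2175. On the latter length, chosen after seeing the data, Tgfb1 was at 35.7 ± 4.97 RPKM in WT, from 29.9 to 38.9, still below the 40.1 to 45.4 of Tgfb3. In ACKR4_KO on that length Tgfb1 was at 30.3 ± 3.07 and Tgfb3 at 29.7 ± 14.1 RPKM, and their ranges overlapped.

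The make-up of the ligands was then taken as the share of each in their summed reads per kilobase, which does not depend on how libraries are scaled. Tgfb3 made up 71.7%, 65.8% and 68.7% in WT and 68.4%, 49.2% and 67.7% in ACKR4_KO. Tgfb1 made up 21.2%, 27.6% and 24.9% in WT and 24.9%, 43.3% and 23.9% in ACKR4_KO. ACKR4_KO replicate 2 stood apart from the other 5 libraries for both, whereas knockout replicates 1 and 3 lay inside the WT range. With the longest coding transcript as length, Tgfb1 was the larger ligand in that library, with 63.5% against 31.1% for Tgfb3. Tgfb2 made up 6.73% ± 0.388 in WT and 7.52% ± 0.780 in ACKR4_KO. By an exact two-sided permutation test over 3 against 3 libraries, which cannot go below p = 0.1, the shares gave p = 0.6 for Tgfb1, 0.2 for Tgfb2 and 0.4 for Tgfb3, each 0.667 after adjustment over the 10 shares of the family.

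**Figure D2:**
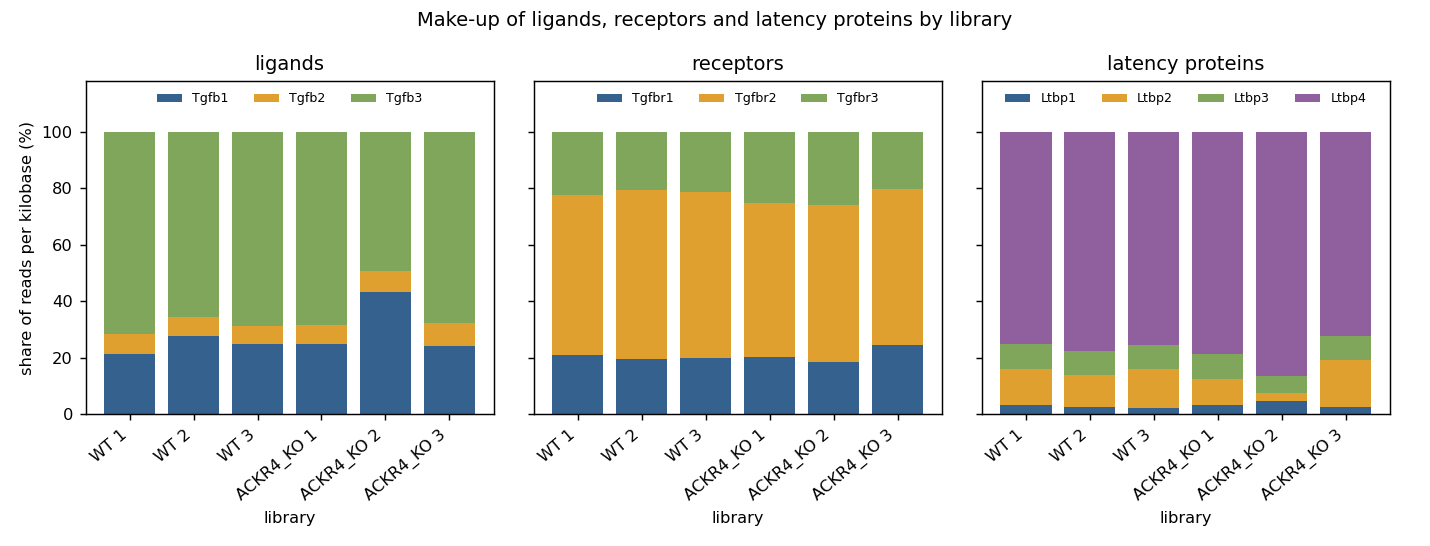
Share of each gene in the summed reads per kilobase of its role (vertical axis, percent) in each library, for the 3 ligands, the 3 receptors and the 4 latency proteins. In ACKR4_KO replicate 2 Tgfb1 makes up 43.3% of the ligands and Ltbp4 86.5% of the latency proteins, and Tgfbr2 makes up 54.6% to 59.9% of the receptors in every library.

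Among the receptors, Tgfbr2 was the member with the smallest p. Tgfbr2 (ENSMUSG00000032440, chr9:116084293-116175360, minus strand), the kinase that binds ligand first, was at 202, 204 and 219 CPM in WT and at 199, 132 and 144 CPM in ACKR4_KO. All knockout libraries lay below all WT libraries, with replicate 1 only just below. The means were 209 ± 9.44 and 158 ± 36.0 CPM, which gave -0.40 on the log2 scale (standard error 0.17) and an interval of -0.78 to -0.01. Its unadjusted p was 0.0447 and its adjusted p 0.664 by edgeR, so it did not pass. Over 13 alternatives in fitting and in the libraries used, the adjusted p by edgeR, DESeq2 or limma-voom ran from 0.164 to 0.999, and the log2 fold change from -0.60 without ACKR4_KO replicate 1 to -0.28 without ACKR4_KO replicate 2. The lung epithelial markers, at 240, 39.3 and 117 CPM in WT replicates 1, 2 and 3, were also higher in WT than in every knockout library, and their part in the level of Tgfbr2 was not tested.

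Tgfbr1 (ENSMUSG00000007613, chr4:47353222-47414931, plus strand), the kinase that phosphorylates SMAD2 and SMAD3, was at 58.8, 53.4 and 58.7 CPM in WT and at 59.4, 34.4 and 50.8 CPM in ACKR4_KO. Replicate 1 of the knockout was just above every WT library and the others were below. On the log2 scale the difference was -0.24 (standard error 0.19), with an interval of -0.67 to 0.19 (adjusted p = 0.765 by edgeR). It was -0.42 without ACKR4_KO replicate 1 and -0.05 without replicate 2.

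Tgfbr3 (ENSMUSG00000029287, chr5:107106570-107289629, minus strand), the co-receptor betaglycan, was at 63.1, 55.8 and 63.0 CPM in WT and at 73.3, 48.5 and 42.0 CPM in ACKR4_KO. Knockout replicate 1 was above every WT library and replicates 2 and 3 were below, so the group enclosed WT. A log2 fold change of -0.15 (standard error 0.20) had an interval of -0.61 to 0.30 (adjusted p = 0.861 by edgeR). It was -0.42 without ACKR4_KO replicate 1, -0.07 without replicate 2 and 0.012 without replicate 3.

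Tgfbr2 was the most abundant receptor per kilobase, at 25.5 ± 1.15 RPKM in WT against 9.26 ± 0.644 for Tgfbr3 and 8.72 ± 0.473 for Tgfbr1, whose ranges overlapped. Its share of the receptors was 57.0%, 59.9% and 59.0% in WT and 54.6%, 55.9% and 55.4% in ACKR4_KO. The groups did not overlap and the difference was -3.36 percentage points, with p = 0.1 by the exact permutation test, the smallest it can give, and 0.667 after adjustment. The shares of Tgfbr1 (20.1% ± 0.615 and 21.0% ± 3.12) and Tgfbr3 (21.3% ± 0.886 and 23.7% ± 3.05) overlapped between WT and ACKR4_KO.

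The latency proteins held both the widest and the narrowest range over the 6 libraries. Ltbp2 (ENSMUSG00000002020, chr12:84783212-84876532, minus strand), the microfibril protein that does not bind latent TGF-beta, was at 241, 249 and 319 CPM in WT and at 153, 32.6 and 415 CPM in ACKR4_KO. Knockout replicates 1 and 2 were below every WT library, replicate 2 at 8.28-fold below the WT mean, and replicate 3 was above every WT library. The exact Poisson 95% intervals were 29.1 to 36.4 CPM for replicate 2, from 318 reads, and 403 to 427 CPM for replicate 3, from 4753 reads. The coefficient of variation was 15.9% in WT and 97.7% in ACKR4_KO. The means were 270 ± 42.9 and 200.2 ± 195 CPM, which gave -0.43 on the log2 scale (standard error 0.80) and an interval of -2.37 to 1.52 (adjusted p = 0.909 by edgeR). The value was 0.076 without ACKR4_KO replicate 2, -1.53 without replicate 3 and -0.27 without replicate 1, and limma-voom gave -1.08 with all libraries.

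Ltbp3 (ENSMUSG00000024940, chr19:5740904-5758532, plus strand), which binds all 3 latent ligands, was at 195, 203 and 218 CPM in WT and at 160, 81.6 and 224 CPM in ACKR4_KO. Its knockout libraries took the same order as those of Ltbp2, with replicate 2 at 2.51-fold below the WT mean and replicate 3 just above WT. Its log2 fold change, -0.40 (standard error 0.32), had a 95% interval of -1.14 to 0.34 (adjusted p = 0.772 by edgeR). It was -0.09 without ACKR4_KO replicate 2 and -0.76 without replicate 3.

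Ltbp4 (ENSMUSG00000040488, chr7:27305136-27337692, minus strand), also known for its part in elastic fibre assembly, was at 1151, 1352 and 1379 CPM in WT and at 1020, 813 and 1411 CPM in ACKR4_KO. Here too replicates 1 and 2 of the knockout were below WT and replicate 3 above. ACKR4_KO minus WT came to -0.26 on the log2 scale (standard error 0.22), with an interval of -0.77 to 0.25 (adjusted p = 0.786 by edgeR), and it was -0.09 without ACKR4_KO replicate 2 and -0.49 without replicate 3.

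Ltbp1 (ENSMUSG00000001870, chr17:75005568-75392512, plus strand), which anchors latent TGF-beta in the matrix, was at 84.6 CPM, 72.9 CPM and 67.8 CPM in WT and at 68.1, 71.2 and 79.7 CPM in ACKR4_KO. Every knockout library lay inside the WT range, which none did for Ltbp2, Ltbp3 or Ltbp4. On the log2 scale the difference was -0.04 (standard error 0.13), with an interval of -0.34 to 0.25 (adjusted p = 0.946 by edgeR), which leaves room for a difference of that size in either direction.

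Ltbp4 was the most abundant of the 10 genes per kilobase, at 200.2 ± 19.3 RPKM in WT and 167 ± 47.0 in ACKR4_KO. The order in WT was Ltbp4, Tgfb3, Ltbp2, Tgfbr2, Ltbp3, Tgfb1, Tgfbr3, Tgfbr1, Ltbp1 and Tgfb2, from 200.2 to 4.21 RPKM, and among neighbours only Tgfbr3 and Tgfbr1 overlapped in range. The means took the same order in ACKR4_KO, where neighbouring ranges stayed apart only between Ltbp4 and Tgfb3, Tgfb1 and Tgfbr3, and Ltbp1 and Tgfb2. With the longest coding transcript as length, Ltbp4 stayed first and Tgfb2 last in both groups, while Tgfb1 and Ltbp3 came ahead of Tgfbr2 and Ltbp1 ahead of Tgfbr3 and Tgfbr1. Ltbp2 made up 12.4%, 11.3% and 13.8% of the latency proteins in WT and 9.32%, 2.74% and 16.8% in ACKR4_KO, which enclosed the WT range (exact permutation p = 0.6, adjusted 0.667).

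**Figure D3:**
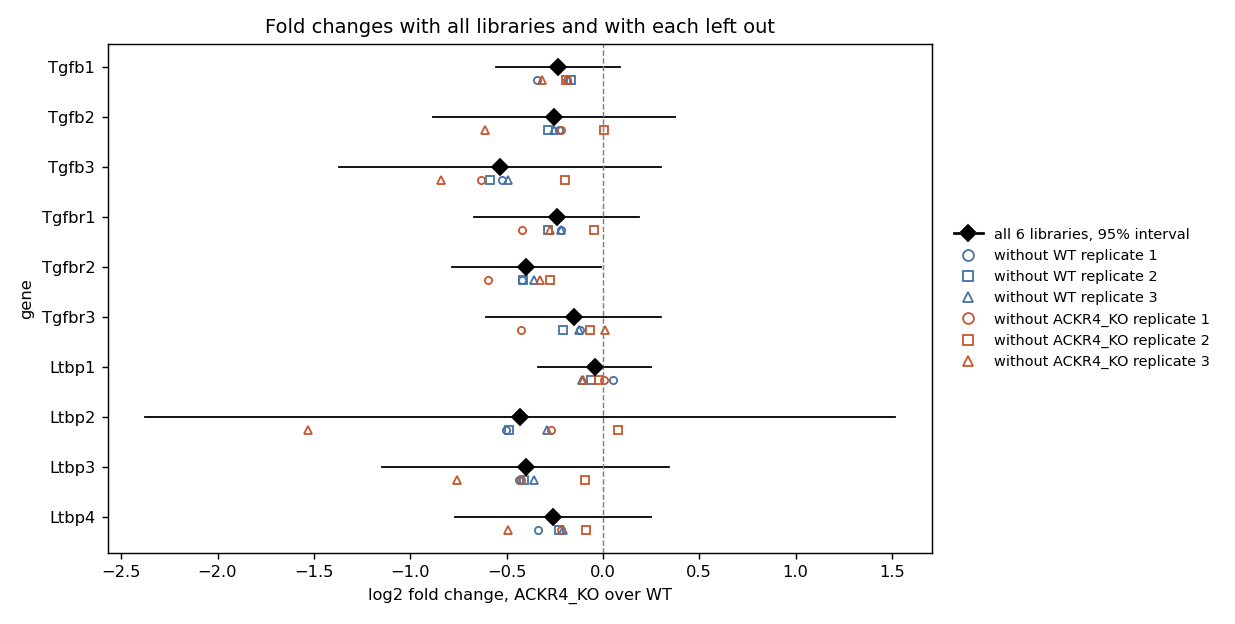
Log2 fold change of ACKR4_KO over WT (horizontal axis) for each of the 10 genes, with the 95% interval over all 6 libraries (diamond and line) and the value with each library left out (open symbols). For Ltbp2 the value runs from -1.53 without ACKR4_KO replicate 3 to 0.076 without ACKR4_KO replicate 2, and the intervals of 9 genes cross 0, the exception being Tgfbr2.

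Markers of activated fibroblasts also differed between the knockout libraries. The 8 markers of that list, from which Ltbp2 was left out as a member of the family, summed to 1880 to 2272 CPM in WT and to 1541, 639 and 3585 CPM in ACKR4_KO replicates 1, 2 and 3. Postn made up most of this sum in every library except ACKR4_KO replicate 2, where it was at 294 CPM. Without Postn the list was at 815 to 893 CPM in WT and at 529, 345 and 1282 CPM in ACKR4_KO. Of the 8 markers, 7 were lowest in ACKR4_KO replicate 2, the exception being Acta2, and 7 were above every WT library in replicate 3, the exception being Meox1, which was below WT in all knockout libraries.

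Relative to the WT mean the activated fibroblast sum was at -0.40, -1.67 and 0.82 on the log2 scale in ACKR4_KO replicates 1, 2 and 3. Ltbp2 was at -0.82, -3.05 and 0.62 and Ltbp3 at -0.36, -1.33 and 0.13. Ltbp4, at -0.34, -0.67 and 0.13, and Tgfb2, at -0.33, -0.99 and 0.27, took the same order over the knockout libraries. Over WT replicates 1, 2 and 3 the sum was at 1947, 1880 and 2272 CPM. Ltbp2, Ltbp3, Ltbp4 and Tgfb2 did not take that WT order. Tgfb3 took the order of the sum over the knockout libraries and over the WT libraries. It was as low as the sum in ACKR4_KO replicate 2, at -1.61, but was at -0.06 in ACKR4_KO replicate 3, where the markers were above WT. Ltbp1, at -0.14, -0.08 and 0.08, stayed near 0.

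The 7 late scar matrifibrocyte markers summed to 1035 to 1210 CPM in WT and to 661, 175 and 879 CPM in ACKR4_KO, and 7 of 7 were lowest in replicate 2. The resident fibroblast sum was 4934 to 5314 CPM in WT and 4489, 3883 and 2576 CPM in ACKR4_KO. Its order rested on Gsn, and without Gsn it was 1910 to 2047 CPM in WT and 1707, 1099 and 1665 CPM in ACKR4_KO, with 6 of the 9 markers lowest in replicate 2. The part of these cells in the members' levels was not tested, and in bulk tissue fewer cells of a type and less RNA per cell cannot be told apart.

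The cardiomyocyte sum was highest in ACKR4_KO replicate 2, with 44855, 62444 and 49195 CPM in knockout replicates 1, 2 and 3, and 9 of 9 of its markers were above every WT library there. The endothelial sum was 2517 to 2648 CPM in WT and 1943, 2623 and 2109 CPM in ACKR4_KO, and that of smooth muscle and pericytes 1840 to 2129 CPM and 1652, 1824 and 1411 CPM. Macrophage markers summed to 1596, 2014 and 1905 CPM in WT and to 1900, 1282 and 1660 CPM in ACKR4_KO. Of these markers 7 of the 9 were lowest in ACKR4_KO replicate 2. Tgfbr1 and Tgfbr2 took the macrophage order over the knockout libraries, as did the resident fibroblast sum without Gsn. Over the WT libraries the resident fibroblast sum without Gsn, at 1910, 2047 and 2007 CPM, again shared the macrophage order. Neither receptor took that order there, with Tgfbr1 at 58.8, 53.4 and 58.7 CPM. The part of these cells was not tested either. T cell markers summed to 11.5 to 15.7 CPM in WT and 5.67 to 6.66 CPM in ACKR4_KO. In the 11 marker lists 0 genes passed edgeR's test (0%), and Postn, Acta2, Cnn1, Fmod and Mfap5 also belong to a pathway list below.

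**Figure D4:**
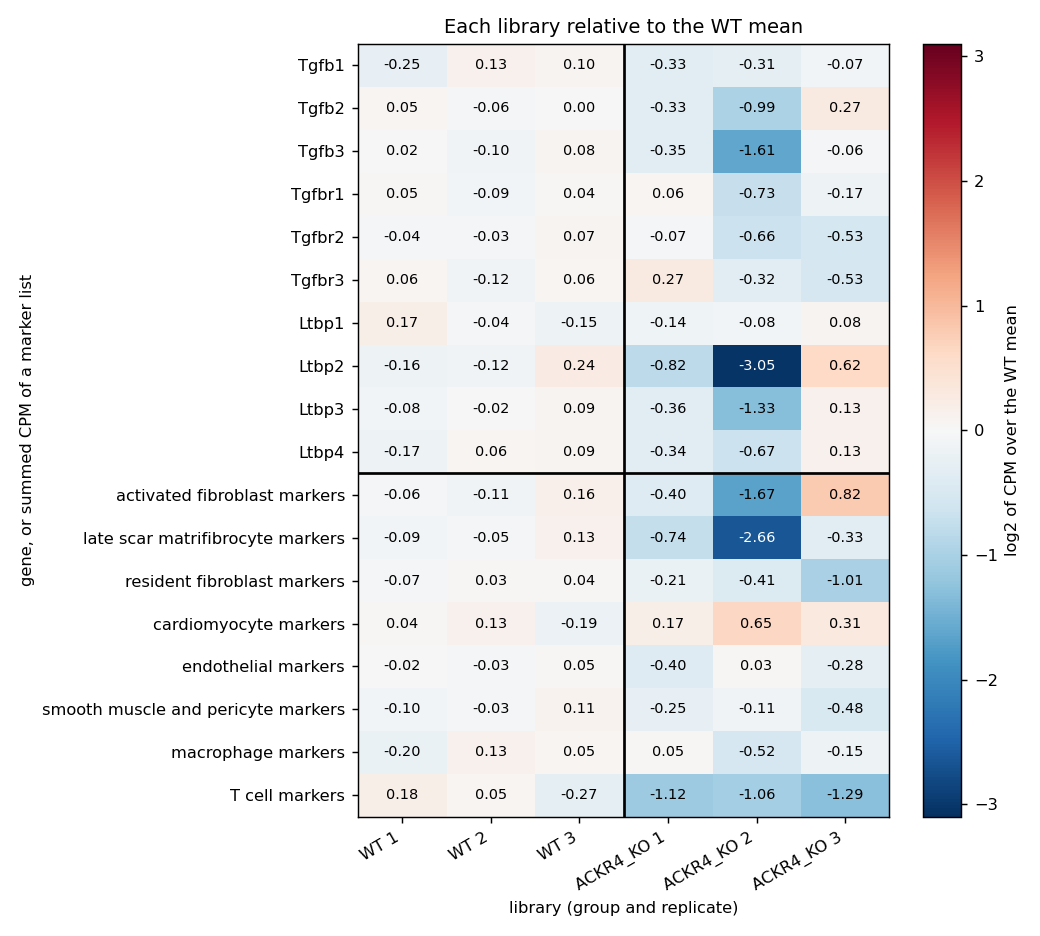
Log2 of the CPM in each library over the WT mean (colour and number) for the 10 genes and for the summed CPM of 8 marker lists, with libraries in columns. ACKR4_KO replicate 2 is the darkest column, at -3.05 for Ltbp2 and -1.67 for activated fibroblast markers, and in replicate 3 Ltbp2 is at 0.62 beside 0.82 for those markers.

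Genes with the most similar profiles over the 6 libraries were sought for the most variable member of each role among 9233 protein-coding genes, as a root mean square difference of centred log2 CPM. For Tgfb3 they were Lhfpl2 (0.0377), Adamts2, a procollagen N-proteinase (0.0703), and Ahnak2 (0.0827). Tgfbr3 was nearest to Fam124a (0.0506), Flt4, a receptor of lymphatic endothelium (0.0606), and Ptgs1, a cyclooxygenase (0.0688). Ltbp2 had no neighbour as close, and among its nearest were Col12a1, a fibril-associated collagen (0.249), and P4ha3, a prolyl hydroxylase of collagen (0.253).

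The proteins that release latent TGF-beta include integrins, proteases and the anchor protein Lrrc32. Of 19 in the list 18 were tested (all but Plg), with 16 lower and 2 higher in ACKR4_KO, a median log2 fold change of -0.28 and 0 past the test. The median was -0.13 without ACKR4_KO replicate 2 and -0.44 without replicate 3. Mmp2, a gelatinase, was at 610 ± 31.6 CPM in WT and at 440, 241 and 394 CPM in ACKR4_KO replicates 1, 2 and 3, all below WT, or -0.77 on the log2 scale (standard error 0.22, adjusted p = 0.606 by edgeR). Lrrc32, which holds latent TGF-beta on the cell surface, was at -0.61 and the proprotein convertase Pcsk5 at -0.75, with the groups not overlapping and the same adjusted p of 0.606 by edgeR. Itgb1, the integrin subunit with the highest level of the list, was at -0.07. Furin, the convertase that cuts the TGF-beta precursor, went the other way, with 126 ± 12.5 CPM in ACKR4_KO and 106 ± 4.17 CPM in WT, without overlap (log2 fold change 0.25, adjusted p = 0.682 by edgeR); it falls outside the rule for naming and was chosen after its value was seen.

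The list of microfibril proteins also took in elastin, fibulins, emilins and fibronectin. Of these matrix proteins 11 of 13 tested were lower and 2 higher, with a median of -0.28 and 0 past the test. Their median was 0.05 without ACKR4_KO replicate 2 and -0.66 without replicate 3. Fbln1, a matrix glycoprotein, had 521 ± 39.0 CPM in the WT libraries and 273 ± 164 CPM in the knockout, or -0.93 on the log2 scale, without overlap between the groups (adjusted p = 0.664 by edgeR). Mfap4 was at -0.66, Emilin2 at 0.51 and elastin (Eln), with the highest level of the list, at -0.02.

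The accessory receptors and traps include small leucine-rich proteoglycans that bind TGF-beta. All 11 were lower, with a median of -0.35, 0 past the test and -0.19 without ACKR4_KO replicate 2. Fmod (fibromodulin) averaged 151 ± 17.7 CPM in the WT libraries and 61.1 ± 45.8 CPM in the knockout, or -1.31 on the log2 scale, without overlap (adjusted p = 0.666 by edgeR). It is also a late scar marker, and that list was lowest in ACKR4_KO replicate 2. Dcn (decorin), the most abundant of the list, was at -0.56 and Bgn (biglycan) at -0.52.

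The Smad proteins and nuclear regulators had 11 of 18 lower and 7 higher, a median of -0.09 (-0.10 without ACKR4_KO replicate 2, -0.04 without ACKR4_KO replicate 3, -0.02 without WT replicate 3) and 0 past the test. Smad6, an inhibitory Smad, averaged 30.9 ± 1.20 CPM in the WT libraries and 23.7 ± 3.59 CPM in the knockout, or -0.39 on the log2 scale, without overlap (adjusted p = 0.661 by edgeR). Pmepa1, itself an inhibitor induced by TGF-beta, was at -0.45, the repressor Tgif1 at -0.42, and Fkbp1a, the most abundant of the list, at 0.17.

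The genes that TGF-beta is known to induce had 15 of 19 lower and 4 higher, a median of -0.29 and 0 past the test. Their median was -0.12, -0.09 and -0.79 without ACKR4_KO replicates 1, 2 and 3 in turn, and -0.15 without WT replicate 3. Nox4, an oxidase, was at -0.66, the metalloproteinase inhibitor Timp1 at -0.57, Cnn1 (calponin) at -0.48 and Col3a1, a fibrillar collagen and the most abundant of the list, at -0.45. The matricellular protein Postn followed the order of Ltbp2, at 1012, 294 and 2303 CPM in ACKR4_KO replicates 1, 2 and 3 against 1192 ± 165 CPM in WT, a log2 fold change of 0.01; it was named for that order, after its values were seen.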

How the data were processed

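The deposited values are raw counts, made with HTSeq 0.6.0 after CASAVA 1.8.2 and HISAT2 on mm10, per the submitters' processing notes. Strand setting and annotation release were not given in the sources used here. Genes were filtered with filterByExpr of edgeR 4.0.16 (minimum count 10, total 15) and scaled by TMM (factors 0.891 to 1.05). ACKR4_KO was tested against WT with edgeR's robust quasi-likelihood test, two-sided, Benjamini-Hochberg adjusted over all 14406 genes. Alternatives used DESeq2 1.42.0, limma-voom (limma 3.58.1), RLE factors, no robust estimation, other filters, a replicate block and each library left out. Lengths and coordinates came from GENCODE M21 (GRCm38). Only the edgeR step was tested on simulated data, with the same spread in both groups, unlike the libraries here. Members and lists were chosen with earlier results of these data known. In each list of pathway genes, those past the test, or else the 3 with the largest absolute fold change at a mean of 2 CPM or more, and the most abundant were named; for similar profiles the minimum was 10 CPM. Some items named by these rules are not reported here.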

Additional observations from a re-analysis of the deposited data

How the results depend on the processing

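No member passed the threshold under any of the 13 alternatives. Of 130 member fold changes 125 were below 0, but these refit the same genes and libraries and are not independent. Over all genes the calls numbered 39 with DESeq2, 24 without the filter on low counts (25472 genes), 6 with the replicate block, and 0 to 1 with a library left out (1 without ACKR4_KO replicate 3); the cause was not tested. Log2 fold changes changed sign when a library was left out for Ltbp1 (-0.11 to 0.05), Ltbp2 (-1.53 to 0.076), Tgfb2 (-0.61 to 0.0032) and Tgfbr3 (-0.42 to 0.012). Differences of shares in percentage points did so for Tgfb1 (-0.156 to 9.55), Ltbp2 (-6.49 to 0.561), Ltbp4 (-0.552 to 6.45) and Tgfbr1 (-0.715 to 2.35). Same-numbered libraries of the groups deviated together with correlations of 0.067, 0.053 and 0.125 across genes, and differently numbered ones with -0.121 to 0.063. ACKR4_KO replicates 1 and 3 correlated best with the WT library of the same number, and replicate 2 with WT replicate 1. All were small, and the main test did not take the numbers as pairs. With the replicate block 0 members passed, 10 were lower, their median was -0.31 and Ltbp2 was at -1.01. With 3 libraries per group, the 95% intervals of the members leave differences of the sizes given with them undecided.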
